A study of Oryctolagus cuniculus with 18 samples.

Results

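Of the 2052 rabbit cDNA clones on the filter, 157 had a higher signal in expanded blastocysts than in early morulae without having been lower in the morula than in 4-cell embryos by the same margin. Members were picked on the deposited table of standardised scores, in which each spot has 1 score per array. The mean over the 6 blastocyst columns had to exceed the mean over the 6 morula columns by at least 0.6 score units, and the 4-cell mean had to exceed the morula mean by less than 0.6. All differences between stages were therefore used to choose the members and are given below as description, without a test. The 3 smallest differences inside the first limit were 0.6004, 0.6008 and 0.6116 and the 3 largest outside it were 0.5995, 0.5992 and 0.5989. At the second limit the values nearest to it were 0.583, 0.553 and 0.530 inside, and 0.607, 0.620 and 0.623 outside, and 25 clones were left out by that limit alone.

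The samples were pools of rabbit (Oryctolagus cuniculus) embryos that had developed in vivo, as the labels state for all but 4-cell pool 3, whose label gives only the time and the females. No treatment is named. Embryos of the 4-cell stage were collected at 32 h post coitum, early morulae at 58 h, and expanded blastocysts at 90 h in pools 2 and 3 and at 96 h in pool 1. Each stage had 3 pools, drawn from 2 to 7 females, of 32 to 35 embryos for morulae, 16 to 60 for blastocysts and 52 or 53 for the 2 counted 4-cell pools. Each pool gave 1 array after linear amplification into antisense RNA (aRNA) and 1 after amplification by PCR, so there were 18 arrays. An array here is a filter of spotted clones hybridised with cDNA labelled with radioactive phosphorus, and the signal of a spot is its brightness. Whole embryos were pooled, so a larger share of cells that hold a transcript and more of it per cell cannot be told apart. Arrays differed in brightness, with a median raw intensity of clone spots between 28 and 386.

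The expanded blastocyst is the stage at which an outer transporting epithelium, the trophectoderm, surrounds a fluid-filled cavity and an inner cell mass. Its formation follows compaction of the morula and needs ion pumps, water channels and tight junctions in the outer cells. By then the embryo relies on its own transcription, since the maternal transcripts stored in the oocyte are largely replaced in rabbit embryos between the early cleavage stages and the morula. The rabbit blastocyst expands to an unusual size before it implants. No source used here pairs the clones with genes, so the members have no gene name, role or sequence below, and neither the pathways of blastocyst formation nor the stage labels could be checked against marker genes.

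The members had low signals at both earlier stages and spread over a wide range in blastocysts. The median raw intensity of a member, taken as the geometric mean over the 6 arrays of a stage, was, in order of stage, 45.8, 105 and 385, against 53.9, 133 and 98.9 over all clones. After background correction and quantile normalization the median member lay at percentiles 36.7 to 44.4 of all clones on the 4-cell arrays, 33.2 to 52.2 on the morula arrays and 81.3 to 86.7 on the blastocyst arrays. The 95th percentile of the spots with the prefix XWAB, a set of spots with no stated role, served as a reference level on each array. Of the 157 members, 139 (88.5%, against 73.2% of all clones) were above it on 0 of the 6 4-cell arrays and 112 (71.3% against 64.9%) on 0 of the 6 morula arrays, while 42 (26.8% against 8.48%) were above it on all 6 blastocyst arrays. There were 30 members above it on all 6 blastocyst arrays and on at most 1 array of each earlier stage. That combination was not counted over all clones, so 30 has no share to be set against. At most 1 blastocyst array reached it in 59 members (37.6%, against 82.3% of all clones).

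The score difference between blastocyst and morula ran from 0.6004 to 4.59, with a median of 1.09 and quartiles of 0.779 and 1.86. It lay between 0.6 and 1 in 70 members, between 1 and 2 in 51, between 2 and 3 in 13 and at 3 or more in 23. These bands were set after the values had been seen. From 4-cell to morula the same members differed by a median of -0.05 score units, from -0.58 to 1.07. The morula score was below the 4-cell score in 85 members, above it by less than 0.6 in 64 and above it by 0.6 or more in 8, so an earlier step preceded the late one in 5.10% of the members. On the normalized log2 scale the median difference over members between blastocyst and morula was 1.29, against -0.07 over all clones, and that between morula and 4-cell was -0.01, against -0.05. Over the 98 members that passed the reference level on at least 2 arrays of either stage, the median log2 difference was 1.82, or 0.81 when the 83 dim morula levels were set to the lowest value above the reference on the same array.

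**Figure D1:**
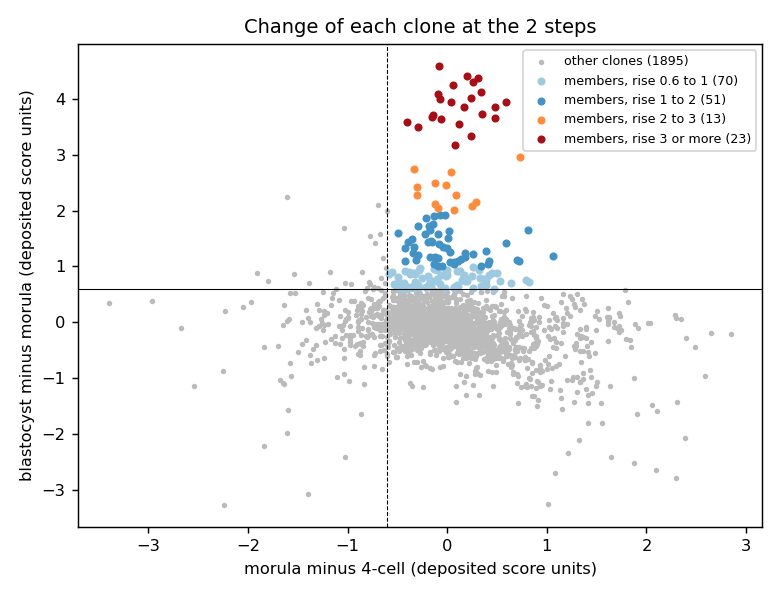
Each point is a clone, placed by its difference in deposited score between morula and 4-cell (x axis) and between blastocyst and morula (y axis), with members coloured by the size of the second difference and the limits of 0.6 drawn as lines. The 23 members at 3 or more lie at the top, from 3.18 up, above a highest value of 2.96 in the other members, while 70 members lie between 0.6 and 1, next to the other clones.

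The 23 members with the largest score differences, called the strongest below, began at 3.18, close above the highest of the other members at 2.96. All 23 carried the name prefix lcao, and they lay on 12 plates of that prefix as the clone names number them, from plate 19 to plate 35. Their raw intensity was between 31.3 and 95.4 at the 4-cell stage, between 76.7 and 264 in morulae and between 4337 and 15313 in blastocysts. On the normalized log2 scale they differed between blastocyst and morula by 4.33 to 6.24, with a median of 4.95. All 23 were above the XWAB level on 6 of 6 blastocyst arrays, 23 on 0 of 6 4-cell arrays and 20 on at most 1 of 6 morula arrays. Those 20 morula levels were then raised to at least the lowest clone value above the XWAB level on each array. With them the median difference was 3.76 on the log2 scale, at least 13.5-fold, and the lowest was 2.93. The clones of this band also had a small spread in blastocysts, with a median SD among the 3 pools of 0.14 (log2), against 0.18 over all clones, and a large one in morulae, 0.73 against 0.23.

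The clone with the largest score difference was lcao0026e02. Its normalized log2 values at the 4-cell stage were 6.54, 6.81 and 7.36 on the aRNA arrays of pools 1, 2 and 3 and 6.12, 6.95 and 6.26 on the PCR arrays. In morulae they were 6.56, 9.42 and 6.72 on aRNA and 6.03, 5.94 and 5.92 on PCR arrays. In blastocysts they were 13.62, 13.07 and 13.74 on aRNA and 11.83, 12.69 and 13.05 on PCR arrays. All 6 blastocyst arrays were higher than every earlier array, and within the morula the aRNA array of pool 2 was higher than the other 5. The means of the 3 pools were 6.67 ± 0.30, 6.77 ± 0.80 and 13.00 ± 0.35 (log2, SD, n = 3 pools), and the blastocyst level was at least 25.0 times the morula level, at which 1 of 6 arrays passed the XWAB level.

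The second clone, lcao0031d06, had normalized log2 values of 6.02, 6.59 and 6.60 on the aRNA arrays of 4-cell embryos and of 6.99, 6.06 and 5.97 on the PCR arrays. Its morula values were 6.29, 9.06 and 6.34 on aRNA and 6.08, 6.51 and 5.99 on PCR arrays, and its blastocyst values were 12.56, 12.56 and 13.07 on aRNA and 11.72, 12.04 and 12.69 on PCR arrays. It had the same order of arrays, with the aRNA array of morula pool 2 again the highest of the earlier arrays. The pool means were 6.37 ± 0.12, 6.71 ± 0.93 and 12.44 ± 0.39 (log2, SD, n = 3 pools), a blastocyst level at least 17.6 times that of the morula.

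Morula pool 2 stood apart in the strongest members as a whole. Its level was the highest of the 3 morula pools in 23 of 23 of them, by a median of 1.26 (log2) over the mean of pools 1 and 3, with a median of 2.10 on aRNA and 0.36 on PCR arrays. Over all clones the median was -0.03, and pool 2 was the highest in 40.0% of them, against 52.2% of all members. The aRNA array of that pool also had the largest share of clones above the XWAB level, 25.5% against 10.2% to 19.9% on the other 17 arrays, and 36 members above it, against 5 and 7 on the other morula aRNA arrays. Its part in the morula level was not tested. Without this pool the median log2 difference of the 23 clones between blastocyst and morula was 5.53 on the values as normalized above. With the remaining arrays normalized again, the differences of lcao0026e02 and lcao0031d06 were 6.86 and 6.41. On the scores without this pool, the rule picked 153 clones, of which 137 were among the 157.

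**Figure D2:**
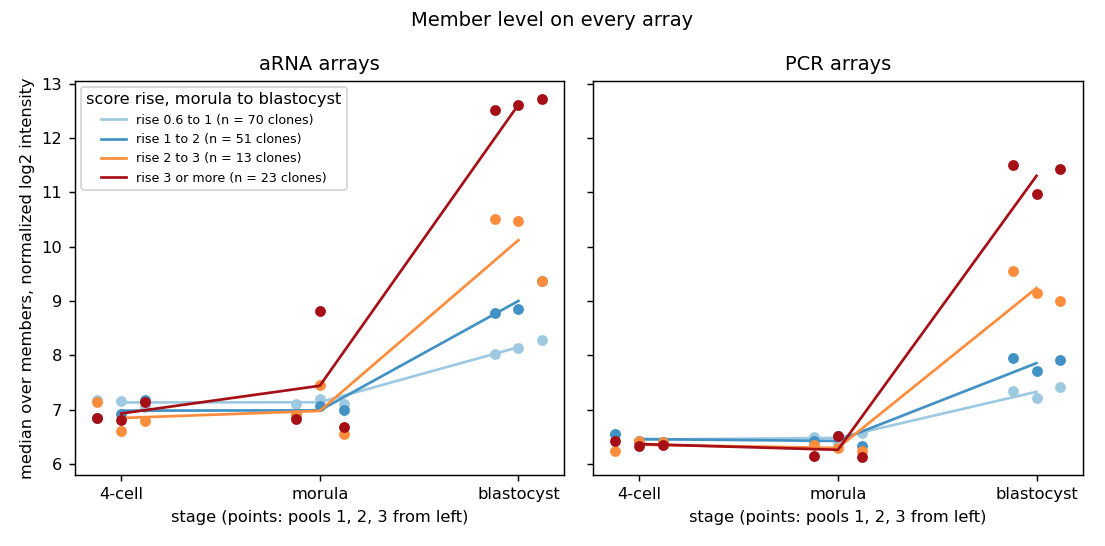
Points give the median normalized log2 intensity over the members of each band on every array, by stage and pool, with aRNA arrays on the left and PCR arrays on the right, and lines join the means of the 3 pools. The bands overlap at the 4-cell stage and the morula and separate in blastocysts, and the aRNA array of morula pool 2 stands above pools 1 and 3 in the strongest band.

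The 13 members with a score difference between 2 and 3 varied most among blastocyst pools. The medians over these clones were 9.83, 9.79 and 9.13 (log2) in blastocyst pools 1, 2 and 3, and pool 3 was the lowest in 9 of 13. Their median SD among the 3 pools was 0.56, against 0.22 and 0.24 in the weaker bands. The pool collected at 96 h was the highest of the 3 in 8 of these 13 clones and in 7 of the 23 strongest. Over all 157 members it was the highest in 41 (26.1%), against 25.6% of all clones, and its median member level of 8.30 lay between those of the 90 h pools, 8.26 and 8.43. With 1 pool at 96 h, no test of collection time was possible.

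The weaker members were not spread evenly over the filter. Spots are printed on a square grid, and a clone was called touching where its spot shared a side or a corner with that of one of the 23 strongest members. Among the 149 other clones that touched one, 73 were members (49.0%), and among the 1595 clones at least 3 positions away, 52 were (3.26%). By position, 50 of 77 clones that shared a side were members (64.9%), 23 of 72 that touched at a corner (31.9%), 9 of 269 that lay 2 positions away (3.35%) and 9 of 329 that lay 3 away (2.74%). The median score difference between blastocyst and morula over all clones at these positions fell in the same order, from 0.892 for a shared side to 0.438 for a corner, 0.01 at 2 positions and -0.07 at 3. Apart from the 23 strongest, the members thus divided into 73 that touched one of them and 61 that did not.

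**Figure D3:**
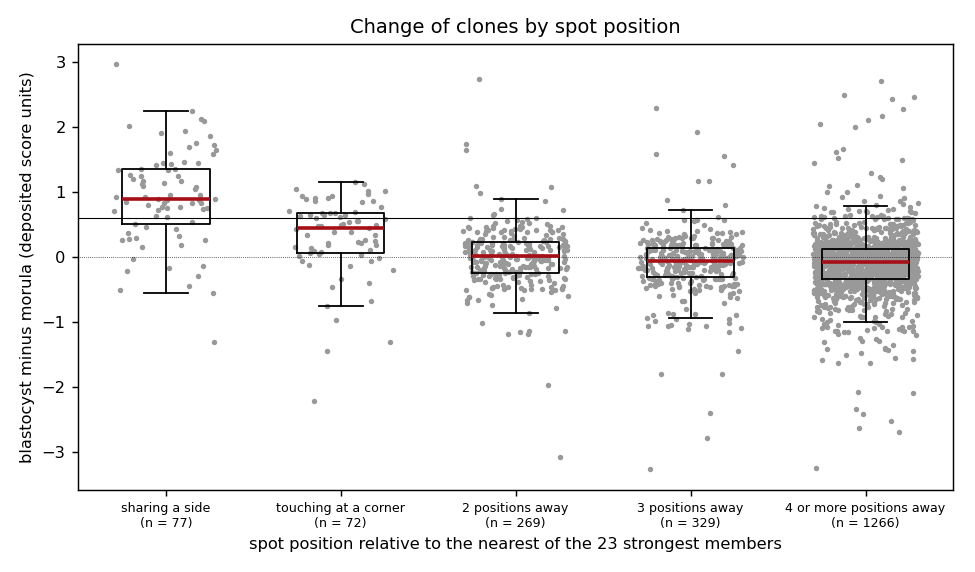
Each point is a clone spotted once, other than the 23 strongest members, by the position of its spot relative to the nearest of those 23 (x axis) and its blastocyst minus morula difference in deposited score (y axis), with boxes for the quartiles and a red line for the median. The median is 0.892 for spots that share a side and 0.438 for spots touching at a corner, and close to 0 from 2 positions on.

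The 73 touching members were mostly dim. Their median raw intensity was 44.7, 97.0 and 272 from the earliest stage to the latest, and 41 of them passed the XWAB level on at most 1 of 6 blastocyst arrays. Of the 73, 43 had the prefix lcap and 30 the prefix lcao. The 61 members that touched none of the strongest had median raw intensities of 52.1, 149 and 406, and 48 of them were lcao, 11 lcap and 2 lcal clones. Of these 61, 10 passed the XWAB level on 6 of 6 blastocyst arrays and 18 on at most 1. The median log2 difference between blastocyst and morula was 1.15 in touching and 1.18 in other members. The same difference was also taken over the members that passed the XWAB level on at least 2 arrays of either stage. With dim morula levels raised to the lowest clone value above that level, it was 0.36 over 32 touching and 0.73 over 43 other members.

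Counted for any brighter neighbour, 100 of the 157 members had an adjacent spot at 4 times their blastocyst intensity or more, a share of 63.7% against 64.6% of all clones. In 79 of these 100 the brightest adjacent spot was itself a member, against 314 of the 1326 clones on the filter with such a neighbour. The median ratio of that spot to the member was 22.0, and the median score difference of these 100 members was 0.913. The other 57 members had no such neighbour, and their median score difference was 2.43, with 53 of 57 from the lcao clones. These 57 included all 23 strongest members, which are lcao clones, and the 100 included 0 of them. A bright spot is less likely to have such a neighbour by construction, so the 2 medians do not measure an effect of neighbours. How much of a member's signal came from the adjacent spot was not tested.

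The prefixes and plates of the members also differed from those of the filter. Of the 157 members 101 were lcao clones, 54 lcap and 2 lcal, where the filter holds 1017, 1017 and 15. Within the lcao clones, plates 19 to 35 gave 81 members of 506 clones (16.0%), the 2 plates below them 7 of 56 (12.5%) and the 11 plates above them 13 of 455 (2.86%). The plates with the most members were lcao 26 with 10 of 46 clones, lcao 34 with 8 of 22 and lcao 33 with 7 of 28. Of the 57 combinations of prefix and plate, 8 held no member. The meaning of the prefixes is not stated.

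The 8 members with an earlier step were led by lcao0027f12, which touched none of the strongest members. Its normalized log2 values were 6.41, 6.95 and 7.43 on aRNA and 6.55, 7.60 and 7.33 on PCR arrays of 4-cell embryos, 8.12, 7.51 and 8.31 and 8.83, 8.46 and 8.78 in morulae, and 9.67, 9.64 and 10.22 and 10.16, 9.70 and 9.58 in blastocysts. The 3 stages did not overlap on either amplification, and the pool means climbed from 7.05 ± 0.49 to 8.34 ± 0.30 and 9.83 ± 0.14 (log2, SD, n = 3 pools). It was above the XWAB level on 0, 3 and 6 of the 6 arrays of the stages, in that order.

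The next, lcap0020h04, touched one of the strongest members, whose spot was 31.3 times as bright in blastocysts. Its values were 6.90, 6.95 and 5.94 on aRNA and 5.97, 6.08 and 6.12 on PCR arrays of 4-cell embryos, 7.76, 8.24 and 8.09 and 6.45, 6.60 and 6.69 in morulae, and 8.76, 8.72 and 8.94 and 7.77, 7.52 and 7.60 in blastocysts. The stages were again in order on both amplifications, but 2 of 6 blastocyst arrays and 1 of 6 morula arrays passed the XWAB level, so no fold is given. Of the 8 clones, 4 touched one of the strongest members and 5 were lcao clones.

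At the other end, the morula score was lowest relative to the 4-cell score in lcap0004b05 and lcao0025g11. On the normalized log2 scale, where their differences were -0.63 and -0.57, other members went down to -0.85. The pool values of lcap0004b05 were 6.96, 7.56 and 6.96 at the 4-cell stage, then 6.63, 6.56 and 6.39 in the morula and 7.41, 7.39 and 7.79 in the blastocyst (log2). Morulae were lower than both other stages without overlap, and the 4-cell and blastocyst pools overlapped. The pool values of lcao0025g11 were 6.87, 6.59 and 6.49, then 6.21, 5.86 and 6.17, then 7.02, 7.08 and 7.11. Its blastocyst pools were higher than all others, by 1.74 over the morula on aRNA arrays and 0.24 on PCR arrays. Both clones were above the XWAB level on 0 of 18 arrays and touched one of the strongest members, 36.6 and 53.4 times as bright.

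**Figure D4:**
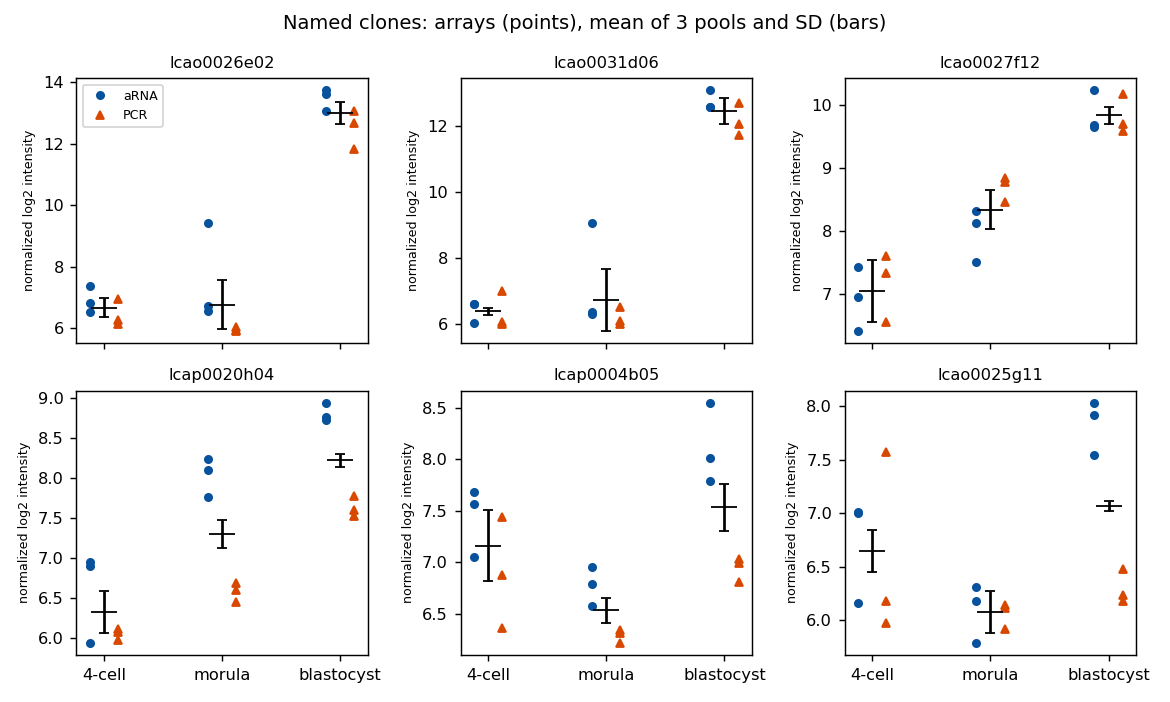
Normalized log2 intensity of 6 named members on every array, by stage, with aRNA arrays as circles, PCR arrays as triangles, and bars for the mean of the 3 pools and its SD. The 2 clones at the upper left are near 6 to 7 before the blastocyst and above 11 in it, except for their aRNA array of morula pool 2 at 9.42 and 9.06, and the other 4 cover a range of less than 5 units.

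Limma fits over all 2052 clones give the scale of these differences against the spread among pools. They are no test of the members, which were chosen on the same contrasts. Between blastocyst and morula 138 of the 157 members were higher at a Benjamini-Hochberg adjusted p under 0.05, where 8.04% of all clones were. Between blastocyst and 4-cell 130 were higher (14.7% of all clones), and between morula and 4-cell 8 were higher and 2 lower (11.7% and 9.55% of all clones), or 6 in all, among the same 10, without morula pool 1. In 148 members all 3 blastocyst pools were above all 3 morula pools, as in 17.6% of all clones. The 138 comprised the 23 strongest, 68 of the 73 touching and 47 of the 61 other members. Without the 3 pools whose arrays carry the code digit 5 in the labels, 85 of the members were higher between blastocyst and morula. Over all clones 175 then differed in either direction, against 330 with all pools.

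The 2 amplifications gave the same direction in each member. The blastocyst level exceeded the morula level on aRNA arrays in 157 of 157 members and on PCR arrays in 157, by at least 0.27 and 0.23 (log2). With each amplification normalized separately, the median difference was 1.56 on aRNA and 1.17 on PCR arrays. It was larger on aRNA arrays in 99 members, a number not counted over all clones. With all 18 arrays normalized together, the difference on PCR minus that on aRNA arrays had a median of -0.10 (log2) over members. Over all clones that median was -0.002. Across members the differences correlated at r of 0.88 (rho of 0.61, n = 157 clones), and over all clones at r of 0.86. The clones share the same 9 pools and are not independent, and the rule had averaged both amplifications. On aRNA arrays alone 112 members were higher by limma (6.48% of all clones), on PCR arrays alone 101 (5.51%), and on both 80 (4.24%), with 23 of the 23 strongest, 33 of the 73 touching and 24 of the 61 other members among the 80. The rule applied to aRNA columns alone picked 170 clones and to PCR columns alone 155, and 108 of the members met it on each.

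**Figure D5:**
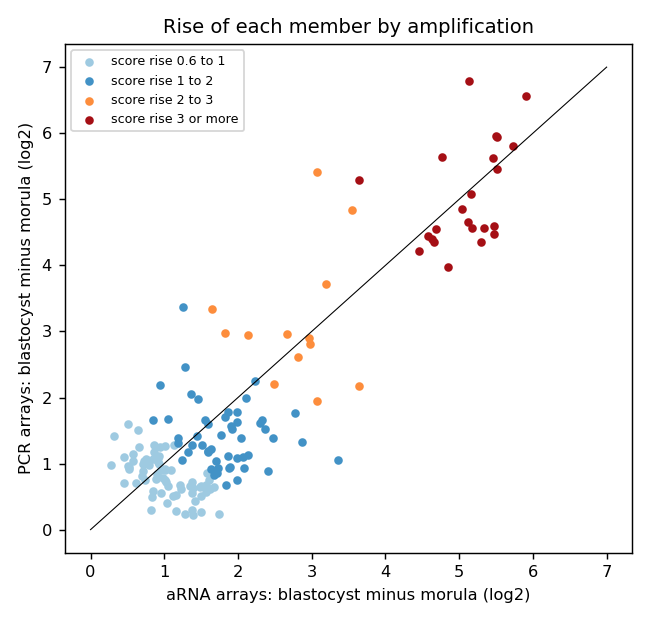
Each point is a member, by its blastocyst minus morula difference (log2) on aRNA arrays (x axis) and on PCR arrays (y axis), coloured by the band of its score difference, with the line of equal values. Each amplification was normalized separately. All 157 points are above 0 on both axes, 99 lie below the line, and the 23 strongest are between 3.65 and 5.91 on aRNA and between 3.97 and 6.79 on PCR arrays.

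Signal on PCR against aRNA arrays of the same pool had no part in the choice of members and was tested, with all 18 arrays normalized together, so these differences are not those of the array values above. By limma on the 9 differences within pools, 8 members were higher and 18 lower on PCR arrays at an adjusted p under 0.05 (9.26% and 9.94% of all clones), which is 5.10% of the members, below the share of all clones, and 11.5%, close to it. The median over members was -0.14 (log2), against -0.01 over all clones, and over the 23 strongest it was -0.36, with 4 of them lower and 0 higher. The 8 higher clones comprised 7 that touched none of the strongest, and the 18 lower clones comprised 9 that touched one. These counts fell to between 14 and 16 in all when any of 4-cell pool 2, blastocyst pool 2, blastocyst pool 3 or morula pool 2 was left out. Over all clones those settings called 274 to 333 in either direction, against 394 with all pools.

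The largest excess on PCR arrays was that of lcao0049b02, at 3.11 ± 0.28 (log2, SE, 9 pools, limma adjusted p = 2.50e-05), with PCR higher in 9 of 9 pools. The excess was 3.03, 3.02 and 4.93 in 4-cell pools 1 to 3, then 4.25, 1.87 and 1.61 in the morula and 2.80, 3.06 and 3.38 in the blastocyst, so the stages overlapped. Normalized within each amplification, its stages did not overlap on aRNA arrays (7.38 to 7.92, 8.51 to 9.29 and 9.44 to 9.72) and did on PCR arrays (9.88 to 12.15, 10.33 to 12.08 and 11.83 to 12.35). The next, lcao0027d08, was higher on PCR arrays by 2.20 ± 0.20 (SE, adjusted p = 2.71e-05), also in 9 of 9 pools. The excess was 0.98, 1.74 and 1.65 in 4-cell pools, 0.91, 3.06 and 1.89 in the morula and 3.36, 2.88 and 3.34 in the blastocyst, and the clone passed the XWAB level on 1 of 9 aRNA and 6 of 9 PCR arrays.

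On the other side, lcao0018a10 was lower on PCR arrays by a difference of -1.07 ± 0.15 (log2, SE, limma adjusted p = 0.000461), in 9 of 9 pools. It passed the XWAB level on 7 of 9 aRNA and 0 of 9 PCR arrays. With PCR levels raised to the lowest clone value above that reference, the aRNA level was at least 1.41-fold higher. The differences as measured were -1.41, -1.35 and -0.55 in the 4-cell pools, -0.78, -0.37 and -0.71 in the morula and -1.70, -1.71 and -1.07 in the blastocyst. For lcao0035a05, which touched one of the strongest members, the difference was -0.90 ± 0.20 (SE, adjusted p = 0.00801), with PCR lower in 8 of 9 pools. It ended at an adjusted p of 0.0642 without the pools of array code 4 and of 0.108 without those of code 5.

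Whether the step from morula to blastocyst depended on the amplification was tested as an interaction over the 9 differences within pools. By limma 0 of the 157 members, and 0% of all clones, passed an adjusted p of 0.05, and the lowest adjusted p was 0.333. At an unadjusted p under 0.05 the step was larger on PCR arrays in 12 members (2.19% of all clones) and smaller in 18 (1.85% of all clones), or 7.64% and 11.5% of the members. Of these 30 clones 14 touched one of the strongest members, with 12 of the 14 smaller on PCR arrays, and 14 of the remaining ones touched none. The median SE over members was 0.43 (log2).

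The largest interaction in each direction was in a touching member. Steps are given with each amplification normalized separately, and interactions with all 18 arrays normalized together. An interaction is therefore not exactly the difference of the steps. The step of lcao0024b02 was 3.07 on aRNA and 5.41 on PCR arrays, an interaction of 2.33 ± 0.52 (log2, SE, limma adjusted p = 0.333). PCR minus aRNA was -1.59, -1.70 and -0.73 in the 3 morula pools and 0.83, 0.85 and 1.28 in the 3 blastocyst pools, with no overlap. The adjacent strongest member was 1.98 times as bright. For lcap0004e06 the step was 3.35 on aRNA and 1.05 on PCR arrays, an interaction of -2.02 ± 0.45 (SE, adjusted p = 0.333). PCR minus aRNA was between 0.00 and 1.13 in the morula pools and -1.37, -1.28 and -1.96 in the blastocyst pools. The clone passed the XWAB level on 3 of 3 blastocyst aRNA arrays, on 0 of 6 morula arrays and on 0 of 9 PCR arrays. These differences therefore involve levels under that reference. With morula levels raised to it, the blastocyst level on aRNA arrays was at least 2.40-fold higher, and on PCR arrays no fold is given. Its spot lay beside one of the strongest members at 13.8 times its intensity.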

How the data were processed

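Per the file headers, the authors measured each spot's intensity in AGScan with a fixed diameter, and no background column was used. A deposited quality score of 0 or 1 per spot was not used. In the series table the authors deposited a standardised score for each spot, whose log base and centring are not stated. It correlates with log2 raw intensity of its array at r of at least 0.993 over clones. It has 0 columns of other samples. The members and the lists were chosen with earlier results of these data known.

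Intensities of all 2304 spots underwent normexp correction in limma (offset 50) and log2 transformation. Quantile normalization of the 2087 clone spots was done separately for aRNA and PCR arrays, so a difference is relative to the rest of the filter. Each member had 1 spot. Means of the 2 arrays of a pool were fitted with limma (lmFit, eBayes) over 9 pools. For PCR against aRNA all 18 arrays were normalized together and differences within pools were fitted. The labels give pools different embryos or females, so the pool was the replicate. A spot was called dim at a stage where 0 or 1 of 6 arrays passed the XWAB level, and folds then use the lowest clone value above that level on the array. That level is a reference, and no source used here states it to be a detection limit. The number of arrays limits the precision. Named clones had the largest score differences at each step, the lowest change from 4-cell to morula, and the largest differences between amplifications, at most 2 IDs per direction. Gene lists could not be used, since clones have no gene names.

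The fits were tested on simulated data with known changes. Versions were R 4.3.3, limma 3.58.1, pandas 2.3.3 and matplotlib 3.10.9. Alternatives covered the normalization, the background correction, a filter on dim clones, blocks, weights, single pools and the limits of the rule.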

Additional observations from a re-analysis of the deposited data

How the results depend on the processing

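The settings without one array code and without the touching members were chosen after seeing the data. Under all settings, 105 of 126 counts were within 1.5 times that reported. The 105 include the counts for the interaction, which were 0 in each setting. They also include the setting of clones with 1 spot, which could not change, since each member had 1 spot. Of 237 differences of named clones, 9 lost the call, 5 gained it, 0 reversed and 223 did none of these. The median log2 difference of the members between blastocyst and morula, 1.29 as reported, ranged with the setting. It was 1.14 with log2 of raw intensity plus 50 and 1.56 on aRNA arrays only. Why counts moved was not tested, except that fewer pools or clones entered some settings by construction. The rule picked 93 clones at a limit of 1.0. Of the members, 95 had no adjacent spot at 4 times their mean intensity over all 18 arrays, where 57 had none by blastocyst arrays alone. Without those touching the strongest, 84 members remained. Of these 84, 70 were higher between blastocyst and morula (8.04% of all clones) and 68 between blastocyst and 4-cell (14.7%). On PCR against aRNA arrays 7 were higher and 9 lower, 16 in all, where 9.26% and 9.94% of all clones were. Counts over all clones below are in either direction. For morula versus 4-cell, against 10 calls, there was 1 under median centring (0 of the 10), 6 with only the 2 stages compared (6 of the 10), 6 on aRNA arrays only (3 of the 10), 3 on PCR arrays only (3 of the 10), 1 without array code 5 (0 of the 10) and 1 without code 6 (1 of the 10). Over all clones these settings called 155, 344, 336, 255, 232 and 245, in that order, against 437 as reported. For blastocyst versus morula 85 were called without code 5, where 175 of all clones were, against 330 as reported. For PCR versus aRNA 5 and 14 were called without codes 5 and 6, where 141 and 238 of all 2052 clones were. With quantile normalization within each amplification 114 were called (2 higher, 112 lower, against 8 and 18). That setting called 1248 of all 2052 clones, against 394 as reported, and does not normalize the 2 amplifications to each other. Leaving out 1 pool at a time gave 153 to 178 clones by the rule, 114 to 142 members called for blastocyst versus morula, 120 to 132 for blastocyst versus 4-cell, 6 to 12 for morula versus 4-cell, 14 to 28 for PCR versus aRNA and 0 for the interaction. Replicate numbers gave no pairing of pools. Deviations of same-numbered pools of different stages correlated at -0.20 to 0.20, with 3 of 9 over 0.1, and the best match of a pool had its own number in 2 of 9. With the replicate block 133 members were called for blastocyst versus morula, 9 for morula versus 4-cell and 32 for PCR versus aRNA. Over all clones 298, 437 and 412 were. Pools that share an array code correlated at -0.01 to 0.24, with 5 of 9 pairs over 0.1. With the code as a block 144 members were called for blastocyst versus morula and 12 for morula versus 4-cell, against 349 and 501 of all clones. Low signal limits the weak members, 59 of which passed the XWAB reference level on at most 1 blastocyst array.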
